A study of Mus musculus with 36 samples.

Results

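The comparison set the embryos numbered 1 to 6 against those numbered 7 to 12, all whole mouse embryos collected at 9.5 days post coitum, male and of the C57BL/6J inbred strain. Members were chosen by the replicate number that ends each sample title, which put 18 of the 36 arrays in the first set and 18 in the second, with 6 embryos of each treatment in each. The 3 treatments were Ethanol (mothers drank 10% v/v ethanol), Nicotine (mothers drank nicotine freebase at 100 µg/ml) and Control. Exposure was by voluntary maternal drinking between 0.5 and 8.5 days post coitum. Each embryo gave total RNA to 1 Illumina bead array. The labels do not say what the replicate number marks, whether a mother, a day, a slide or nothing, nor which embryos were littermates. The p-values below therefore measure only the spread between these embryos, which may be technical.

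This division was drawn because these arrays differ along it, so the difference between the sets is what chose it. That difference is described here without a test. What the choice did not use is the effect of each drink inside a set and the difference of that effect between the sets, and those are tested.

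At this age the mouse embryo is turning and building its main organs. The tail bud adds new somites under the control of Wnt, Fgf and Cdx genes, and Hox genes, switched on in order along the chromosome, give each level of the trunk its identity. The heart already pumps primitive red cells made in the yolk sac. A whole-embryo RNA sample sums all of these tissues, together with any extraembryonic membrane left on the embryo. On the bead array a gene can be read by several probes that bind different stretches of its transcripts, and each probe gives 1 fluorescence value.

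Of 45281 probes, 16927 reached an intensity of 32 on at least 12 of the 36 arrays, and they covered 9683 named genes. Each gene is represented by its brightest kept probe. Levels are log2(intensity + 16), and differences are means of replicates 1 to 6 minus means of replicates 7 to 12 over the 3 treatments unless stated. Array medians of intensity ran only from 10.7 to 10.8. The 3 embryos numbered 6 stood apart from all others on the second principal component, at 39.4 to 54.4, and some results are given with and without them. Without them 63 of 68 set differences of named genes and list medians kept their sign, and the 5 that did not were list medians near 0: trunk and tail Hox genes (0.22 without them), oxidative phosphorylation subunits (0.04), antioxidant genes (0.04), noncoding RNA genes (0.03) and cytosolic ribosomal proteins (0.02). The Nicotine embryo numbered 3 had a mean log2 level of 5.86 over 19 heart muscle genes, against 9.18 to 10.6 in the other 35 embryos.

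Scores on the first principal component (48.1% of variance) did not overlap between the sets. Replicates 1 to 6 scored 17.9 to 44.5, and replicates 7 to 12 scored -41.4 to -24.5. Within replicates 1 to 6 the mean score was 32.4 ± 3.83 in Ethanol, 39.7 ± 5.48 in Nicotine and 28.1 ± 9.04 in Control embryos (SD, n = 6 each). Within replicates 7 to 12 it was -35.7 ± 4.48 in Ethanol, -31.6 ± 4.80 in Nicotine and -32.8 ± 7.33 in Control embryos (SD, n = 6 each). All 3 treatments thus sat on the same side within a set.

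**Figure D1:**
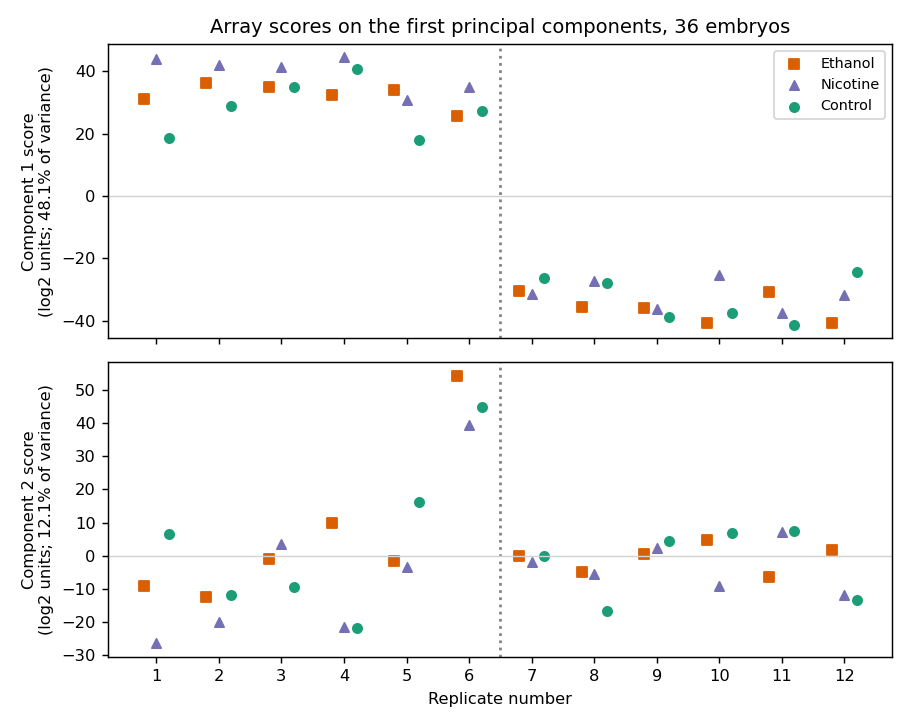
Scores of the 36 arrays on principal components 1 (upper panel, 48.1% of variance) and 2 (lower panel, 12.1%) against replicate number, with 1 point per embryo and symbols for the 3 treatments. Component 1 drops at the dotted line between numbers 6 and 7 in every treatment, and on component 2 the 3 embryos numbered 6 lie at 39.4 to 54.4.

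A gene is called apart when all 18 arrays of one set lay beyond all 18 of the other. By that rule 675 genes (6.97% of 9683) were apart and higher in replicates 1 to 6, and 190 (1.96%) were apart and lower, 865 (8.93%) in all. Over 16927 probes, 1274 (7.53%) were apart and higher and 364 (2.15%) apart and lower, of which 815 (4.81%) and 89 (0.526%) differed by 1 or more on the log2 scale. These shares describe the contrast that chose the sets, and nothing is read from them. The mean level of the 675 higher genes was 8.71 to 9.01 on the arrays of replicates 1 to 6 and 7.59 to 7.86 on those of replicates 7 to 12. For the 190 lower genes it ran from 8.74 to 9.01 on arrays of replicates 1 to 6, against 9.54 to 9.68 on the others. The rule fixes the sign of the difference in each treatment for these genes, so only its size is described. The median difference of the higher genes was 1.19 in Ethanol, 1.14 in Nicotine and 1.05 in Control embryos. That of the lower genes was -0.63, -0.61 and -0.59 in the same order.

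The 2 directions differed in shape. Over all 9683 genes the median difference was -0.06 and only 41.8% had a higher mean in replicates 1 to 6, yet the upper tail was longer: the 5th and 95th percentiles were -0.60 and 1.0. Most genes lay slightly lower in replicates 1 to 6 while a smaller group lay far higher. Genes just inside the rule were Stard7, with 0.000452 between the nearest arrays of the sets, and Ddx31. Coq5 and Swsap1, whose nearest arrays tied, fell just outside it. Without the embryos numbered 6, probes apart in either direction numbered 2093, against 1638 with them (9.68% of 16927 probes).

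The genes with the largest positive differences, 1.93 to 2.16 on the log2 scale for the first 15, had varied functions. Several served protein transport and membrane traffic. Kpnb1, the importin beta that carries cargo into the nucleus, had an intensity of 1015 to 1563 (median 1341) in replicates 1 to 6 and 208 to 459 (median 319) in replicates 7 to 12, a difference of 1.95. Kpna3, an importin alpha that binds the nuclear import signal for Kpnb1, stood at 282 to 505 (median 399) in replicates 1 to 6 and 58.3 to 122 (median 86.0) in replicates 7 to 12. The lowest array of the first set was above the highest of the second for both importins. Vps26b, a subunit of the retromer that returns receptors from endosomes, differed by 2.16, and Rab9, a GTPase of the same endosome-to-Golgi route, by 2.0. The second probe of Rab9 differed by -0.44. Vapa, which tethers the endoplasmic reticulum to other membranes, differed by 1.96.

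Mitochondrial genes were also among them. Ndufb9, a subunit of respiratory complex I, had an intensity of 297 to 833 (median 640) in replicates 1 to 6 and 83.2 to 218 (median 130) in replicates 7 to 12, a difference of 2.04. Dld, the dihydrolipoamide dehydrogenase shared by the large oxidative enzyme complexes, stood at 183 to 396 (median 295) in replicates 1 to 6 and 42.0 to 95.1 (median 58.3) in replicates 7 to 12. Pmpcb, the catalytic subunit of the protease that removes mitochondrial targeting sequences, differed by 1.99. No array of replicates 1 to 6 reached down to the other set for any of these 3 genes.

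Ptges3, the p23 co-chaperone of Hsp90, was bright on every array, at 1220 to 1767 (median 1411) in replicates 1 to 6 and 295 to 464 (median 360) in replicates 7 to 12. The largest difference of all, 2.16, was that of Pcmtd2, a relative of the protein repair methyltransferases. It had an intensity of 112 to 199 (median 152) in replicates 1 to 6 and 11.5 to 36.8 (median 21.2) in replicates 7 to 12. Genes whose dimmer set lay mostly under the filter of 32, such as Pcmtd2, were kept through their brighter set, and the size of their difference depends on the pseudocount of 16. Tanc1, a scaffold protein of synapses, differed by 2.16, Abhd17c, a depalmitoylating enzyme, by 2.02, B3gat2, a glucuronyltransferase, by 1.99 and Otud6b, a deubiquitinase, by 1.99. The second probe of Abhd17c differed by -0.34. Tug1, a long noncoding RNA, differed by 1.94 on its brightest probe, while its other 3 probes differed by -0.61, 1.05 and -0.57, so its probes disagree.

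The genes with the largest negative differences included Ezh2 and Smc2, which act on chromosomes. Ezh2, the histone methyltransferase of Polycomb repressive complex 2, had an intensity of 303 to 1723 (median 959) in replicates 1 to 6 and 1743 to 2778 (median 2375) in replicates 7 to 12, a difference of -1.31. Smc2, a core subunit of condensin, which compacts mitotic chromosomes, stood at 24.8 to 187 (median 85.8) in replicates 1 to 6 and 214 to 378 (median 283) in replicates 7 to 12, a difference of -1.70. Replicates 1 to 6 were the lower set for both and did not reach the other set. The other probe of Ezh2 differed by 0.74, in the opposite direction, and Smc2 had no other kept probe.

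Partners of these proteins did not all share their direction. Eed, which sits in the same Polycomb complex as Ezh2 and binds the methyl mark, differed by 1.91, with mean log2 levels of 9.88 ± 0.20 in replicates 1 to 6 and 7.97 ± 0.25 in replicates 7 to 12 (SD, n = 18 each). Suz12, the third core subunit, differed by -0.07. Smc4, the condensin partner of Smc2, differed by -0.70, and Smc3, a core subunit of cohesin, by 1.92. Eed, Suz12, Smc3 and Smc4 are named after their values were seen.

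Other strongly negative genes had assorted roles. Nkx6-2, a homeodomain factor of the ventral neural tube, had an intensity of 12.7 to 111 (median 47.1) in replicates 1 to 6 and 148 to 347 (median 214) in replicates 7 to 12, and its second probe went the same way at -1.14. Frmd7, a cytoskeletal regulator of neurite growth, stood at 241 to 597 (median 352) in replicates 1 to 6 and 792 to 1880 (median 1270) in replicates 7 to 12. Its relative Frmd8, which binds and stabilises the iRhom proteins, differed by -1.93 and its second probe by -0.69, with intensities of 5.52 to 47.8 in replicates 1 to 6 that lay mostly under the filter. The sets did not overlap for the brightest probe of any of the 3. Spdya, an activator of cyclin-dependent kinases, differed by -1.84, Srek1, a splicing regulator, by -1.64 and its 3 other probes by -0.84, -0.64 and -0.39. Mpp5, a polarity scaffold, differed by -1.48, and the largest negative value, -2.22, was that of the unannotated transcript B230308N11Rik. For Cnot4, a ubiquitin ligase linked to the CCR4-NOT complex, the brightest probe differed by -1.32 and the other 2 by 1.12 and 0.64. For Nktr, a cyclophilin of the splicing machinery, the probes stood at -1.33 and 0.99.

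**Figure D2:**
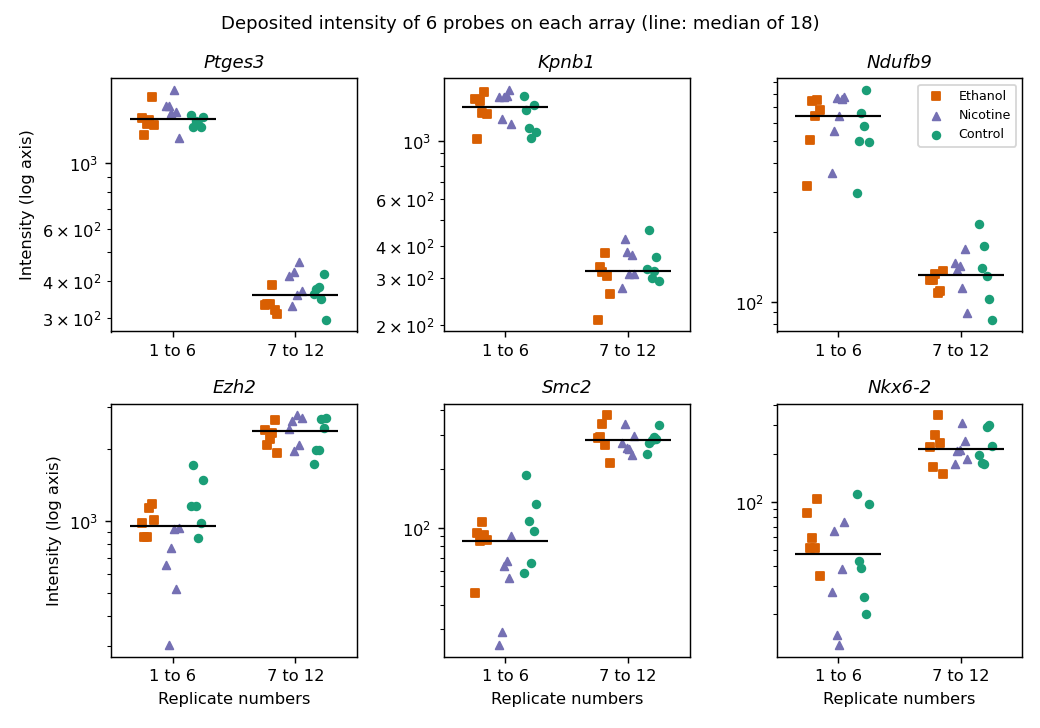
Deposited intensity (log axis) of 1 probe each for Ptges3, Kpnb1, Ndufb9, Ezh2, Smc2 and Nkx6-2 on every array, replicates 1 to 6 on the left and 7 to 12 on the right, with symbols for treatment and a line at the median of 18 arrays. The sets do not overlap in any panel: the medians are 1411 and 360 for Ptges3 and 959 and 2375 for Ezh2, with replicates 1 to 6 given first.

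Further probes of the same genes were compared with the probe that stood for the gene. Of the 675 genes that were apart and higher, 227 had 326 further kept probes, whose median difference was -0.08 with quartiles of -0.41 and 0.35. Of these 326, 46 (14.1%) were themselves apart and higher, against 7.53% of all probes, and 10 were apart and lower, against 2.15%. Of the 190 lower genes, 92 had 130 further probes with a median of -0.27, of which 13 (10%) were apart and lower and 12 apart and higher. Ctnnb1, the beta-catenin of Wnt signalling and cell junctions, had probes at 0.86 and -2.27, each apart in its own direction. Fip1l1, a factor of messenger RNA polyadenylation, had probes at 1.2 and -2.57. Usp1, a deubiquitinase of DNA repair, and Ube3a, the imprinted ubiquitin ligase of Angelman syndrome, also had probes apart in both directions, at 1.29 and -1.29 for Usp1 and 1.26 and -1.25 for Ube3a. These 4 genes are named after their values were seen.

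Over the 2373 genes with exactly 2 kept probes, the set differences of both probes had a Pearson r of 0.11 and a Spearman rho of 0.16, and 57.9% had the same sign. For the difference of nicotine against control in replicates 7 to 12, the same 2373 genes gave an r of 0.69 and 68.5% of the same sign, and in replicates 1 to 6 an r of 0.39 and 63.5%. Ethanol against control gave an r of 0.41 in the first set and 0.55 in the second, with 63.4% and 61.4% of the same sign. Spearman rho in the first and second set was 0.35 and 0.53 for nicotine, and 0.37 and 0.33 for ethanol. The difference of the nicotine effect between sets gave an r of 0.30, a rho of 0.28 and 58.7% of the same sign. That of ethanol gave 0.52, 0.31 and 61.2%. After the means of treatment and set were removed, the levels of both probes correlated over the 36 arrays with a median r of 0.44. These correlations run across genes or share arrays, their points are not independent, and they are given as a description. Probe sequences and transcript positions were not used here, so whether disagreeing probes bind different transcripts was not tested.

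**Figure D3:**
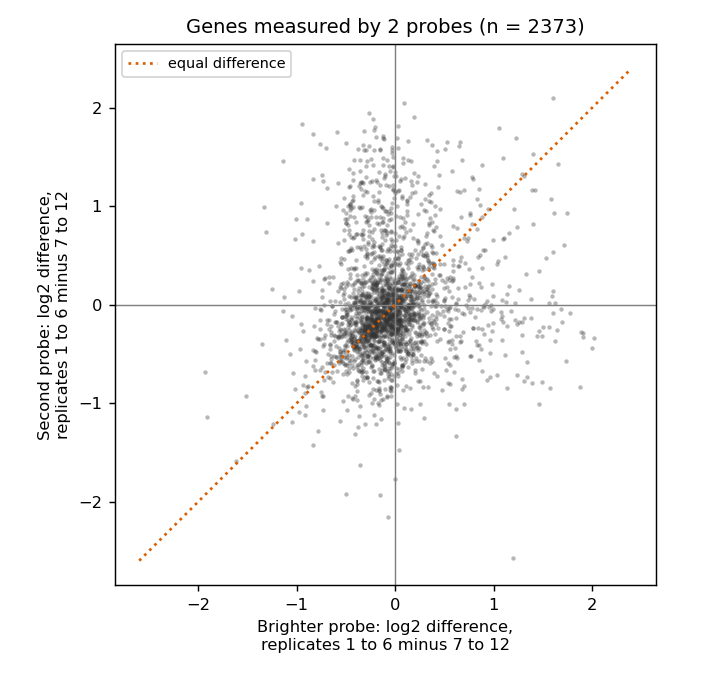
Set difference (log2, replicates 1 to 6 minus 7 to 12) of the second probe against the brighter probe for 2373 genes with 2 kept probes; each point is a gene and the dotted line marks equal differences. Few points with a large value on one axis lie near the dotted line (r = 0.11).

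Gene groups were looked at next, from 38 lists of pathways, complexes and cell types. Among 66 nuclear subunits of oxidative phosphorylation the median difference was -0.05, 3 were apart and higher (6.97% of all genes) and 3 apart and lower (1.96% of all genes), and the median of all genes was -0.06. Sdhd, an anchor subunit of succinate dehydrogenase, had an intensity of 306 to 781 (median 449) in replicates 1 to 6 and 73.6 to 156 (median 108) in replicates 7 to 12. Atp5a1, the alpha subunit of ATP synthase, stood at 950 to 1806 (median 1245) in replicates 1 to 6 and 252 to 531 (median 388) in replicates 7 to 12. Both genes were without overlap, but the second probe of Atp5a1 differed by -0.25.

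The 27 proteasome subunits had a median of -0.06, with 2 apart and higher and 1 apart and lower. Psmd6, a lid subunit, differed by 1.77, Psmd14, the lid's deubiquitinase, by 1.23 with its second probe at 1.70. Psmd3, a scaffold of the same lid, was under the filter of 32 in replicates 1 to 6, at 3.48 to 8.92 (median 5.51), against 6.64 to 109 (median 71.8) in replicates 7 to 12, with overlap. Of 49 cytosolic ribosomal proteins (median -0.01), 2 were apart, namely Rps3a1 at 1.36 and Rpl14 at 0.90. Of 69 mitochondrial ribosomal proteins (median -0.12), 2 were apart and higher and 3 apart and lower, where all genes gave 6.97% and 1.96%. Mrps15 differed by 1.31 on both of its probes.

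The mitochondrial genome itself had values of both signs. Of 6 measured genes encoded there, 3 were apart and higher, against 6.97% of all genes. ATP6, a subunit of the ATP synthase, had an intensity of 3443 to 5610 (median 4557) in replicates 1 to 6 and 1152 to 2180 (median 1704) in replicates 7 to 12. COX2, a subunit of cytochrome oxidase, stood at 2639 to 5770 (median 3921) in replicates 1 to 6 and 1020 to 2246 (median 1297) in replicates 7 to 12. ND5, of complex I, went the other way at 125 to 417 (median 234) in replicates 1 to 6 and 308 to 1012 (median 705) in replicates 7 to 12, with overlap. The genes of 1 mitochondrial genome, which are transcribed together, thus differed by 1.46 and by -1.55 between the same embryos.

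Heat shock and chaperone genes had the most members apart and higher of the 38 lists. Of 20 measured, 15 had a higher mean in replicates 1 to 6 (41.8% of all genes), 7 were apart and higher (6.97% of all genes), 0 apart and lower (1.96% of all genes), and the list median was 0.35. St13, a cofactor of Hsp70, had an intensity of 727 to 1197 (median 966) in replicates 1 to 6 and 175 to 338 (median 259) in replicates 7 to 12. Cct7, a subunit of the chaperonin that folds actin and tubulin, stood at 111 to 211 (median 156) in replicates 1 to 6 and 22.8 to 52.9 (median 35.6) in replicates 7 to 12. Hspa4, an Hsp70 relative that exchanges its nucleotide, differed by 1.66. Averaged over the list, all 18 arrays of replicates 1 to 6 lay above all of replicates 7 to 12. The 8 further probes of these genes had a median of -0.06, 4 higher and 4 lower, and the chaperonin subunits Cct4 and Cct6a differed by -0.28 and -0.25. In the unfolded protein and integrated stress response list, Dnajb9, an endoplasmic reticulum co-chaperone, differed by 1.40 with a second probe at 1.53, Atf4, the factor at the centre of the response, by 1.0 with a second probe at 0.09, and Calr, a calcium-binding chaperone, by -1.12. That list of 24 had a median of 0.05.

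Lists of nuclear machinery are set against all genes, of which 41.8% had a higher mean in replicates 1 to 6. Of 45 replication-dependent histone genes, 35 had a lower mean in replicates 1 to 6, with a median of -0.29 (-0.11 without the embryos numbered 6), and 1, H2ac11, was apart and lower. Of 20 large chromatin regulators 13 were lower, with a median of -0.33, while Bptf, a nucleosome remodeller, differed by 1.66 and Trrap, a scaffold of histone acetyltransferases, by 1.63. Chd1, a remodeller of transcribed chromatin, differed by -1.30 and its other 3 probes by -0.50, -1.27 and -0.54. Of 15 subunits of RNA polymerase II and its general factors 13 were lower, with a median of -0.21, and Polr2g differed by 1.57. The 9 further probes of these subunits had a median of 0.06, 5 higher and 4 lower. Further probes of the histone and chromatin lists had medians of -0.11 and -0.58. Among 46 splicing factors (17 higher, median -0.09) U2af2, which recognises the 3′ splice site, differed by 1.33 and the helicase Ddx5 by -1.01. In the cell cycle list (26 genes, 10 higher, median -0.10) the replication licensing gene Cdc6 differed by 1.07 and its second probe by -0.07, and the mitotic kinase Aurka differed by -0.93, both apart on their brightest probes.

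**Figure D4:**
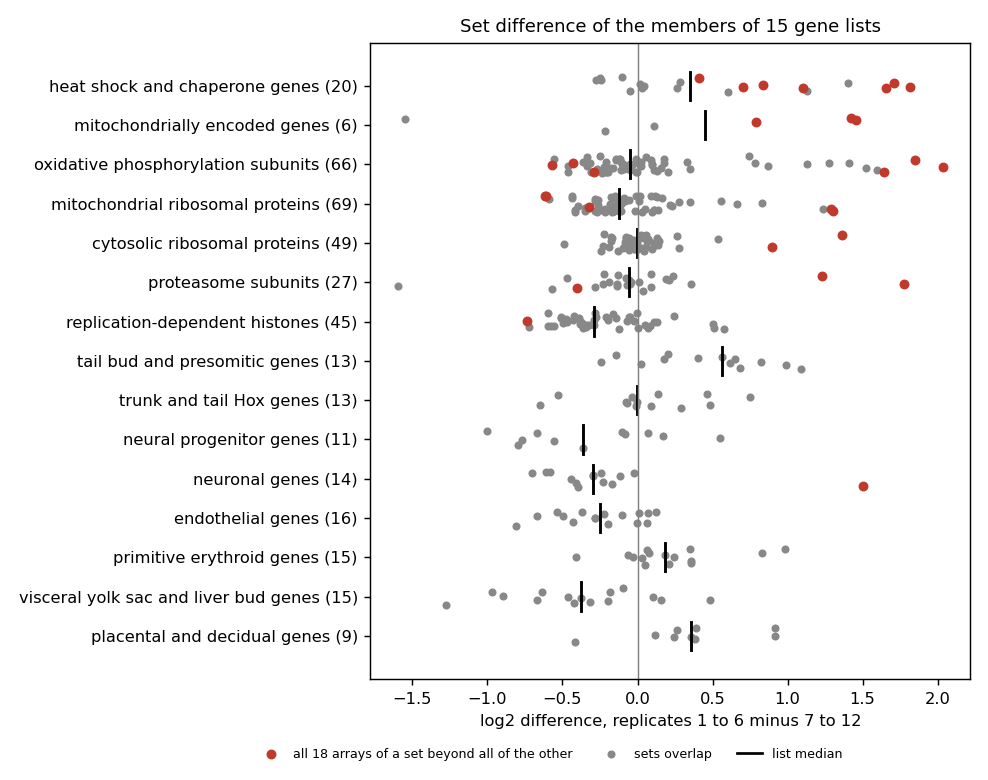
Set difference (log2, replicates 1 to 6 minus 7 to 12) of each measured member of 15 gene lists, with the number of members in brackets, a bar at the list median and larger red points where all 18 arrays of one set lay beyond the other. In the oxidative phosphorylation, ribosomal and proteasome lists most members lie near 0 while single members exceed 1, and the neuronal list has 13 of 14 members below 0 with Gap43 at 1.5.

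Lists that mark tissues had few members apart. Of all genes 6.97% were apart and higher and 1.96% apart and lower, and the lists are short, so nothing is read from these counts. In whole embryos fewer cells of a type and less RNA per cell cannot be told apart. Of 13 tail bud and presomitic genes 11 had a higher mean in replicates 1 to 6, against 41.8% of all genes, with a median of 0.56. Of the 13, 0 were apart, against 8.93% of all genes. The 3 further probes of these genes had a median of 0.05, 2 higher and 1 lower. Sp8, a zinc finger factor of the tail bud and limb ridge, had an intensity of 171 to 576 (median 286) in replicates 1 to 6 and 74.6 to 234 (median 128) in replicates 7 to 12, with overlap. Cdx4 differed by 0.99 and Evx1 by 0.82. The list median was 0.03 in Ethanol, 0.58 in Nicotine and 0.71 in Control embryos.

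Neural lists leaned the other way. Of 14 neuronal genes 13 were lower in replicates 1 to 6 (median -0.30), among them Stmn2, a microtubule regulator of growing axons, at -0.70. The 6 further probes of the neuronal genes had a median of -0.08, 3 higher and 3 lower. Gap43, a growth cone protein, stood out at 396 to 758 (median 589) in replicates 1 to 6 and 135 to 254 (median 191) in replicates 7 to 12, without overlap. Of 11 neural progenitor genes 8 were lower (median -0.36, or -0.57 without the embryos numbered 6), and Sox2, a factor of neural stem cells, differed by -1.0 on one probe and by 0.87 on the other. The 4 further probes of the progenitor genes had a median of 0.17, 2 higher and 2 lower. Of 16 endothelial genes 12 were lower (median -0.25), led by the junction protein gene Pecam1 at -0.81, whose second probe stood at -0.04. Dlx2, a factor of the branchial arches and forebrain, was without overlap at 162 to 391 (median 279) in replicates 1 to 6 and 59.3 to 110 (median 84.8) in replicates 7 to 12.

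Genes of the extraembryonic membranes ranged widely between embryos of each set. The mean over 15 visceral yolk sac and liver bud genes ran from 5.6 to 10.4 in replicates 1 to 6 and from 6.00 to 9.74 in replicates 7 to 12. The median set difference of this list was -0.38 over all arrays (-0.13 without the embryos numbered 6). It was -1.49 in Ethanol, -0.04 in Nicotine and 0.28 in Control embryos. The mean over 9 placental and decidual genes ran from 6.03 to 10.1 in replicates 1 to 6 and from 6.12 to 8.44 in replicates 7 to 12. The levels of both lists overlapped widely between the sets. Of 15 primitive erythroid genes 12 had a higher mean in replicates 1 to 6 (median 0.19), and Klf1, the erythroid regulator, differed by 0.83, while the embryonic globin gene Hbb-y differed by -0.06.

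Y-linked genes were measured in all of these male embryos. Eif2s3y, a translation initiation factor, had an intensity of 409 to 837 (median 679) in replicates 1 to 6 and 153 to 309 (median 220) in replicates 7 to 12, without overlap. Kdm5d, a histone demethylase, stood at 123 to 287 (median 196) in replicates 1 to 6 and 59.4 to 125 (median 83.5) in replicates 7 to 12, with a small overlap. Uty differed by 0.15. Lin28b, an RNA-binding protein of early embryos and the earlier-stage gene that was apart, stood at 334 to 544 (median 416) in replicates 1 to 6 and 83.5 to 151 (median 102) in replicates 7 to 12. Its relative Lin28a differed by 0.51 on the brightest probe and by -1.38, -0.78 and 1.69 on the others.

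Promoter GC content was known for 81.3% of genes, and the median set difference ran only from -0.08 to -0.05 over 5 groups of genes ordered by it. The share apart and higher was 4.60% among the shortest 1935 of 9675 genes and 6.72% to 8.11% in the 4 longer groups. Over 5 groups ordered by mean level, the share apart and higher was 9.19% in the middle group, 4.70% in the brightest and 6.71% in the dimmest. By chromosome, X held the highest share apart and higher (10.2%), leaving out the few genes of MT and Y, and chromosome 4 the highest share apart and lower (3.79%). Of 2237 kept probes without a single symbol, 10.5% were apart. The spread between embryos of one treatment was wider in replicates 1 to 6, with a median SD of 0.25 over kept probes (0.21 without the embryos numbered 6), against 0.18 in replicates 7 to 12.

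The effect of nicotine, tested inside each set, was called only in replicates 1 to 6. In that set 220 of 16927 probes passed (1.3%): 44 (0.26%) rose and 176 (1.04%) fell in Nicotine against Control embryos at an adjusted p of 0.05 (limma with Benjamini-Hochberg adjustment), covering 100 genes (1.03%), 26 that rose (0.269% of 9683) and 74 that fell (0.764%) by their brightest probe. Within replicates 7 to 12, 0 probes (0%) passed in limma, 774 had an unadjusted p under 0.05 and the smallest adjusted p was 0.729. The difference of the nicotine effect between the sets also gave 0 calls (0%), with 1175 probes at an unadjusted p under 0.05 and a smallest adjusted p of 0.384. The calls in one set are therefore not shown to be particular to that set. Replicate number was not in this fit, and the counts with it as a block are given further below. The fit also used 1 spread per probe for both sets, so the median SE was 0.128 in each. Embryos of the set with calls varied more, at a median SD of 0.25 against 0.18. A shared spread makes calls easier in the wider set and harder in the narrower one. Fitted on its own 12 arrays, each set gave 0 calls (smallest limma adjusted p 0.392 for the first set, 0.479 for the second).

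Among genes past the threshold, the largest rise in replicates 1 to 6 was that of Hoxb1, a Hox gene of the hindbrain and early posterior mesoderm. Its intensity was 212 to 513 (median 387) in Nicotine and 148 to 288 (median 192) in Control embryos of that set, with overlap, and the difference was 0.86 (SE 0.228, limma adjusted p = 0.0487). Replicates 7 to 12 gave 156 to 544 (median 337) in Nicotine and 150 to 292 (median 187) in Control embryos, and a difference of 0.61 that did not pass (adjusted p = 0.947). Its second probe differed by 0.70 in replicates 1 to 6, with an adjusted p of 0.111. Zbtb14, a zinc finger repressor, rose by 0.54 (SE 0.129, limma adjusted p = 0.0270) at 132 to 206 (median 149) in Nicotine and 70.2 to 132 (median 103) in Control embryos of replicates 1 to 6, with the edges just overlapping, and its second probe stood at 0.30. Also risen were Samd1, a binder of unmethylated CpG islands (0.64), Ift80, a component of the transport train of cilia (0.48), and Gemin5, which delivers small nuclear RNAs to the SMN complex (0.44), with Tmem267 (0.71), Lat2 (0.52), Arhgap39 (0.43), Syt9 (0.43) and Sdad1 (0.42).

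Of the genes that fell with nicotine in replicates 1 to 6, the 10 with the largest differences are described first. Dcn, the matrix proteoglycan decorin, fell by 1.08 on the log2 scale (SE 0.232, limma adjusted p = 0.0170) and by 1.12 on its second probe. Its intensity was 248 to 938 (median 551) in Nicotine and 802 to 1496 (median 1097) in Control embryos of that set, with overlap. Dcn in replicates 7 to 12 stood at 715 to 1517 (median 1035) in Nicotine and 956 to 1825 (median 1264) in Control embryos, a difference of -0.33. Nnat, an imprinted gene of the developing brain, fell by 0.98, with its other probes at -0.35 and -0.07. Sppl2a, an intramembrane protease, fell by 1.01 and stood at 12.2 to 158 (median 92.5) in Nicotine and 137 to 231 (median 160) in Control embryos of that set.

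Ezh2, Srek1 and Smc2, which were among the genes with the largest negative set difference, also fell with nicotine in replicates 1 to 6. Ezh2 fell by 0.88 (SE 0.185, limma adjusted p = 0.0157), with an intensity of 303 to 934 (median 715) in Nicotine and 851 to 1723 (median 1156) in Control embryos. The same probe in replicates 7 to 12 stood at 1972 to 2778 (median 2528) in Nicotine and 1743 to 2699 (median 2219) in Control embryos, a difference of 0.11. The other probe of Ezh2 differed by 0.32 in replicates 1 to 6. Srek1 fell by 0.87, with other probes at -0.30, -0.22 and 0.08, and Smc2 fell by 0.80. Osbpl1a, a lipid-binding protein of late endosomes, fell by 0.86, Calr by 0.86, Ankrd11, a chromatin regulator, by 0.77 with other probes at -0.05 and -0.69, and Golim4, a Golgi membrane protein, by 0.74.

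None of these 20 genes passed the test of the difference between sets, where their adjusted p ran from 0.384 to 0.972. The 176 probes that fell had a median of -0.60 in replicates 1 to 6 and -0.02 in replicates 7 to 12, where 105 were below and 71 above Control. The 44 that rose had medians of 0.41 and 0.08, with 38 above and 6 below Control in replicates 7 to 12. The same 176 probes had a median set difference of -0.66 and a median of -0.19 for ethanol against control in replicates 1 to 6, and the 44 had 0.10 and 0.18. Those values come partly from the same arrays as the calls, and nothing is read from their likeness.

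The count of nicotine calls in replicates 1 to 6 varied with single embryos. It was 220 with all arrays, 1 without the embryos numbered 1 (Fam76a, named after its value was seen), 13 without those numbered 2, 400 without 3, 142 without 4, 259 without 5 and 538 without 6, of which 188 were among the 220. Leaving out 1 Nicotine embryo gave 41 (number 1), 100 (number 2), 202 (number 3), 80 (number 4), 493 (number 5) and 794 (number 6). Leaving out 1 Control embryo gave 46 (number 1), 94 (number 2), 385 (number 3), 316 (number 4), 102 (number 5) and 152 (number 6). When the 12 arrays were fitted alone, without the spread of the other 24, limma made 0 calls, with 1542 probes at an unadjusted p under 0.05 and a smallest adjusted p of 0.392. Hoxb1 kept a difference of 0.74 to 1.02 under every setting tried, but its call was lost in 19 of 35 of them. Dcn ran from -1.27 to -0.79 and Ezh2 from -1.08 to -0.56, and each lost its call in 5 of 35. Without the embryos numbered 6 the differences were 0.97 for Hoxb1 (limma adjusted p = 0.0318), -1.27 for Dcn (limma adjusted p = 0.0098) and -0.89 for Ezh2 (limma adjusted p = 0.0233).

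Posterior genes lay above Control in Nicotine embryos of both sets, which share no arrays. All 38 lists were chosen with earlier results of these data known. Likeness between the sets on a list is therefore a description and not an independent check. Of 13 tail bud and presomitic genes, 12 were above Control in replicates 1 to 6 (58.6% of all genes) with a median of 0.54, and 13 in replicates 7 to 12 (49.2% of all genes) with a median of 0.64. All genes had a median of 0.03 in the first set and -0.002 in the second. Of 13 trunk and tail Hox genes, 11 were above Control in replicates 1 to 6 (median 0.48) and 13 in replicates 7 to 12 (median 0.64). By brightest probe 0 members of either list passed limma in either set, while a second probe of Cdx1, a caudal homeobox gene, rose by 0.79 in replicates 1 to 6 (limma adjusted p = 0.0492). With any 1 embryo or replicate number left out, the tail bud median stayed between 0.45 and 0.66 in replicates 1 to 6 and between 0.47 and 0.79 in replicates 7 to 12. Members of a list are not replicates, and single embryos overlapped. The tail bud mean was 7.33 to 9.21 (median 8.68) in Nicotine and 7.67 to 8.40 (median 8.03) in Control embryos of replicates 1 to 6. In replicates 7 to 12 it was 7.59 to 8.76 (median 8.03) in Nicotine and 6.83 to 7.97 (median 7.23) in Control embryos. The trunk and tail Hox means overlapped in both sets as well. Markers of embryo stage are given beside these lists. Of 12 later stage genes, 0 were above Control in replicates 1 to 6 (median -0.20) and 1 in replicates 7 to 12 (median -0.19). This list shares Dcx, Gap43, Ina, Nefm and Stmn2 with the neuronal list, and Col2a1 and Col9a1 with the extracellular matrix list. Of 8 earlier stage genes, 5 were above Control in replicates 1 to 6 (median 0.09), near the 58.6% of all genes. In replicates 7 to 12, 7 of the 8 were above Control (median 0.34), against 49.2% of all genes. The earlier stage list includes tail bud genes such as Tbx6 and Wnt3a. The part of stage in the posterior values was not tested.

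The largest posterior differences came from genes named here after their values were seen. Cdx2, a regulator of posterior Hox genes, had an intensity of 251 to 2081 (median 1609) in Nicotine and 373 to 1048 (median 622) in Control embryos of replicates 1 to 6. In replicates 7 to 12 it was 322 to 1623 (median 911) in Nicotine and 65.4 to 924 (median 242) in Control embryos. The groups overlapped in both sets, and the differences were 0.95 (SE 0.528) and 1.69 (SE 0.528), with limma adjusted p of 0.4 and 0.769. Hoxc10, a Hox gene of the lumbar level, differed by 0.99 in replicates 1 to 6 and 2.0 in replicates 7 to 12 (SE 0.578 each). Tbx6, which directs paraxial mesoderm, differed by 0.96 and 1.67 (SE 0.487 each). Nkx1-2, of the caudal progenitors, differed by 1.15 and 1.16 (SE 0.422 each). Hoxd12 was dim and differed by -0.74 and 0.23. The test of the difference between sets gave adjusted p of 0.951 for Cdx2, 0.907 for Hoxc10 and 0.945 for Tbx6.

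**Figure D5:**
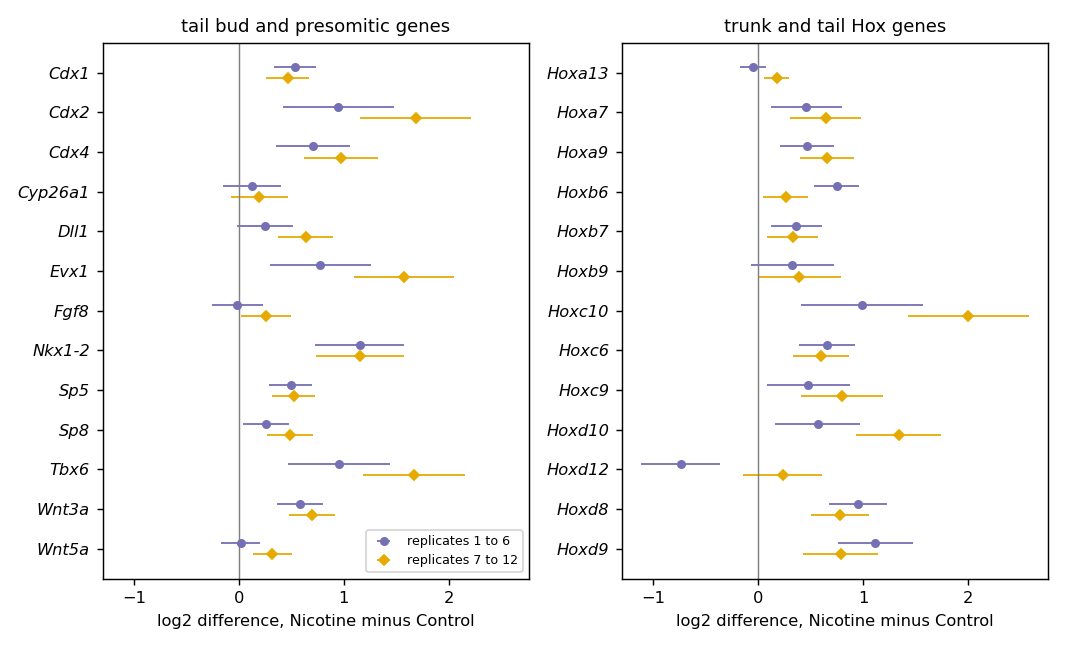
Difference of Nicotine minus Control (log2, with its standard error from the fit) for 13 tail bud and presomitic genes and 13 trunk and tail Hox genes, circles for replicates 1 to 6 and diamonds for replicates 7 to 12. In replicates 1 to 6, 12 and 11 of the 13 genes lie right of 0, and in replicates 7 to 12 all 13 in both panels, with error bars that overlap between the sets for most genes.

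Anterior Hox genes, by contrast, had medians of 0.51 in replicates 1 to 6, with 8 of 10 above Control, and -0.07 in replicates 7 to 12, with 4 of 10. Hoxa4 differed by 0.85 and -0.22 and Hoxb5 by 0.59 and -0.21, with adjusted p for the difference between sets of 0.467 and 0.445, and both are named after their values were seen. Neuronal genes lay below Control in both sets, with 2 of 14 above in replicates 1 to 6 (median -0.29) and 1 of 14 in replicates 7 to 12 (median -0.46). Endothelial genes did so as well, with 3 of 16 above (median -0.24) and 0 of 16 (median -0.31). Of 21 extracellular matrix genes, 4 were above Control in replicates 1 to 6 (median -0.19) and 3 in replicates 7 to 12 (median -0.18). By brightest probe Dcn was the 1 member of these 3 lists that passed, in replicates 1 to 6. A second probe of Sparc, a matrix glycoprotein, fell by 0.97 (limma adjusted p = 0.00717), while its brightest probe differed by -0.46 (adjusted p = 0.0692).

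Other list members passed in replicates 1 to 6 as well, by their brightest probe. Klf6, an immediate early zinc finger gene, fell by 0.71 (limma adjusted p = 0.00717). Nfe2l2, the regulator of antioxidant genes, fell by 0.68, Tfap2b, a neural crest factor, by 0.68 with a second probe at -0.61, Tet1, a DNA demethylation enzyme, by 0.55, and Srsf11, a splicing factor, by 0.56 with a second probe at -0.57. Their differences in replicates 7 to 12 were -0.09, -0.21, -0.27, -0.01 and 0.03 in the same order, and the adjusted p for the difference between sets ran from 0.445 for Klf6 to 0.748 for Nfe2l2.

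The heart muscle list rested on 1 embryo in one set. Of 19 members 1 was above Control in replicates 1 to 6, with a median of -0.62, against 11 with a median of 0.04 in replicates 7 to 12. Without the Nicotine embryo numbered 3, whose heart muscle level was 5.86, 16 of 19 were above Control and the median was 0.21. The list mean of the other 5 Nicotine embryos in that set ran from 9.70 to 10.6, and that of the 6 Control embryos from 9.48 to 10.4. The list means in replicates 7 to 12 ran from 9.18 to 10.4 in Nicotine and from 9.65 to 10.4 in Control embryos.

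Ethanol gave 0 calls in limma in replicates 1 to 6 (0%), where 728 probes had an unadjusted p under 0.05, and 0 in replicates 7 to 12 (0%), where 172 did. The difference of the ethanol effect between the sets gave 0 calls (0%), with 389 probes at an unadjusted p under 0.05. The genes nearest to the threshold had these values. In replicates 1 to 6 Sephs1, a relative of selenophosphate synthetase, had an intensity of 137 to 157 (median 148) in Ethanol and 106 to 139 (median 119) in Control embryos, a difference of 0.27 (SE 0.0653, adjusted p = 0.998). Tmem267 differed by 0.69 in the same set. For replicates 7 to 12 the heat shock factor gene Hsf2 differed by -0.49. Prl2c3, a prolactin-family hormone of placental giant cells, stood at 4.62 to 18.3 (median 7.01) in Ethanol and 19.5 to 612 (median 197) in Control embryos of that set, without overlap, a difference of -3.11 (SE 1.01, limma adjusted p = 1). In replicates 1 to 6 it stood at 7.81 to 106 (median 23.7) in Ethanol and 3.36 to 15133 (median 23.3) in Control embryos. Prl2c2, Prl2c3 and Prl2c4 are near-identical copies whose probes may share signal.

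Cholesterol synthesis genes lay below Control in Ethanol embryos of both sets, with 3 of 17 above in replicates 1 to 6 (57.4% of all genes; median -0.14) and 1 of 17 in replicates 7 to 12 (48% of all genes; median -0.13), and 0 members passed. Visceral yolk sac and liver bud genes did not keep one side. Of 15 members, 2 were above Control in replicates 1 to 6 (median -0.36) and 15 in replicates 7 to 12 (median 1.24). Apoa1, an apolipoprotein, had an intensity of 26.2 to 167 (median 60.7) in Ethanol and 12.6 to 4761 (median 88.3) in Control embryos of replicates 1 to 6. In replicates 7 to 12 it was 58.8 to 5144 (median 1939) in Ethanol and 42.6 to 1575 (median 74.9) in Control embryos, again with overlap. The list median of replicates 7 to 12 was 0.78 to 1.70 with 1 embryo or replicate number left out, and in replicates 1 to 6 it was -0.75 to 0.14. It was above 0 without both embryos numbered 3 (0.14) and without Control 3 (0.06).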

How the data were processed

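The values are intensity, 1 per probe and array on a linear scale, as the authors deposited them, and the submitters' processing notes name GenomeStudio 1.9.0; how background and scale were handled is not given in the sources used here. Array means were all 357.7. A file of earlier signals had 72 columns whose names match no sample, and these were not used. Groups and replicate numbers came from the sample titles.

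From the intensity, log2(intensity + 16) was computed, which understates changes of dim probes, and probes reaching 32 on at least 12 arrays were kept. Of kept probes 14690 had 1 symbol in the platform annotation, and 9675 of 9683 symbols matched a RefSeq gene table. limma 3.58.1 in R 4.3.3 (lmFit and eBayes) was fitted to all 36 arrays with a mean for each treatment in each set, and p-values were two-sided and adjusted over 16927 probes at a threshold of 0.05. The set difference was described by means and by whether all arrays of the sets were apart.

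The sets, the 38 gene lists and the rules were chosen with earlier results of these data known. Named genes were the 15 largest differences each way among genes apart, the 3 largest and the smallest of each list, the Y-linked genes, and for each treatment test up to 10 genes each way past the threshold or the 10 of smallest p. Replicate numbers were not used as pairs in the main fit, since not every same-number pair of embryos correlated above 0.1. Same-number pairs averaged a correlation of 0.17, and pairs of unequal number -0.03. With the number as a block, nicotine gave 742 calls in replicates 1 to 6. The difference of its effect between the sets then gave 2. On simulated data for nicotine in replicates 1 to 6, the fit recovered 34% of log2 changes of 0.4, 60% of 0.6, 96% of 1 and 100% of 1.5, with 15 calls among 16727 unchanged probes. The simulated noise was independent between probes and arrays, with 1 spread per probe for both sets. The real spread was wider in replicates 1 to 6 (median SD 0.25 against 0.18), so these rates may be too favourable there. The alternatives were other pseudocounts, filters, scalings, blocks, weights and arrays left out.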

Additional observations from a re-analysis of the deposited data

Results flagged for a closer look

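In 11 of 170 groups of 6 embryos formed by the named genes of the treatment tests, 1 embryo stood far from the other 5, with a gap to its nearest neighbour above 0.625 of the group's range. Chance gives such a gap in about 1 in 20 groups, or about 8 here. The gap is given as a share of the range, and levels are log2 values.

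In replicates 1 to 6, the Ethanol embryo numbered 6 was low for Rabggtb, a prenyltransferase subunit (gap 0.643, level 11.51 against a median of 11.64 in the others). Pcolce2, an enhancer of collagen processing, was high in Ethanol 4 (gap 0.738, 6.38 against 5.94) and in Control 1 (gap 0.802, 6.82 against 6.15). Tnks1bp1, which binds tankyrase, was low in Nicotine 3 (gap 0.629, 5.63 against 6.10), and Spast, a microtubule-severing enzyme, in Control 2 (gap 0.754, 7.67 against 8.08).

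In replicates 7 to 12, the Ethanol embryos 7 and 9 were high for Ric1, a Golgi exchange factor subunit (gap 0.688, 6.60 against 6.20), and for Prl2c4, a placental hormone (gap 0.841, 5.11 against 4.41). The Nicotine embryo 7 was low for Cyth1, an Arf exchange factor (gap 0.736, 5.33 against 5.92), and high for Mettl8, a methyltransferase (gap 0.703, 7.47 against 7.22). Control 8 was high for Fzd1, a Wnt receptor (gap 0.693, 5.51 against 5.13), and low for Tspan17, a tetraspanin (gap 0.816, 6.49 against 7.6).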

How the results depend on the processing

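Probes apart between the sets numbered 1683 to 2093 with 1 replicate number left out, against 1638 with all, and 893 to 994 of them differed by 1 or more, against 904. With fewer arrays apart is easier to meet: within Ethanol alone 4097 probes were apart, within Nicotine alone 3785 (1369 by 1 or more) and within Control alone 3204. With a pseudocount of 64, 517 probes were apart by 1 or more, and 62 had their nearest arrays at least 1 apart, a rule chosen after seeing the data. With the median over a gene's probes the set difference reversed for Cnot4 (0.64) and Tug1 (-0.12). Nicotine calls in replicates 1 to 6, 220 in all, numbered 1 to 538 with 1 replicate number left out, 41 to 794 with 1 embryo left out (chosen after seeing the data), 104 with no filter, 137 with array weights and 0 with the 12 arrays alone. With the replicate block they numbered 742, of which 219 were among the 220, and 512 with the block and replicate 6 left out (chosen after seeing the data); same-number embryos correlated above 0.1 in 22 of 36 pairs (they averaged 0.17 and went down to -0.28, while pairs of unequal number averaged -0.03), and 14 of 36 arrays correlated best with their own number, a hint of a shared effect from the data and not from the labels. The block gave 2 calls for the difference of the nicotine effect between sets, Tnks1bp1 (0.67, limma adjusted p = 0.0246) and a probe of Slu7 (-0.84, limma adjusted p = 0.0495), where the fit without it gave 0. Ethanol in either set, nicotine in replicates 7 to 12 and the ethanol difference between sets gave 0 calls under each setting. The cause of these shifts was not tested. Dim signal limits many probes, and no detection value was used.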

Other observations

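The 10 genes of smallest p for nicotine in replicates 7 to 12, none past the threshold, had values of the same sign in replicates 1 to 6. All 10 were smaller in size there, some of them near 0. Choosing genes by their values in one set favours smaller values in the other. The share of same sign over all genes was not computed, so nothing is read from this likeness. Angptl1, an angiopoietin-like protein, differed by -0.03 in replicates 1 to 6 and by -0.99 in replicates 7 to 12, Brinp1 by -0.04 and -0.62, Cpq by -0.05 and -0.44 and Ppfibp2 by -0.12 and -0.55, in the same order. Gbx2, a homeobox gene of the midbrain-hindbrain border and posterior embryo, had an intensity of 768 to 1631 (median 1258) in Nicotine and 590 to 1170 (median 697) in Control embryos of replicates 1 to 6. Replicates 7 to 12 gave 892 to 1645 (median 1301) in Nicotine and 592 to 901 (median 707) in Control embryos, with a difference of 0.77 (SE 0.198, limma adjusted p = 0.729). Nfib, a factor of lung and brain maturation, stood at 45.5 to 95.4 (median 60.0) in Nicotine and 65.3 to 101 (median 87.6) in Control embryos of replicates 1 to 6. Replicates 7 to 12 gave 69.9 to 148 (median 122) in Nicotine and 164 to 233 (median 183) in Control embryos, without overlap, and all 4 of its other probes were below Control there, by -0.52 to -0.35.

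Brca1, a DNA repair gene, had opposite values in the sets: 15.6 to 37.7 (median 31.8) in Nicotine and 38.0 to 56.2 (median 45.0) in Control embryos of replicates 1 to 6, and 57.5 to 78.9 (median 67.4) in Nicotine and 32.2 to 64.8 (median 54.3) in Control embryos of replicates 7 to 12. The difference between sets was -0.75 (SE 0.196, limma adjusted p = 0.384), and on its other probe 0.37.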
